A study of Homo sapiens with 6 samples.

Results

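The transcripts examined here encode 37 listed laminin chains, matrix glycoproteins and enzymes that modify or crosslink collagen and elastin, chosen by gene name from the spike-in normalized table. Of the 37, 35 had a row among the 23026 genes of that table, and THBS2 and MFAP2 had none. Each of these was counted once, in shControl 1B, where 3 counts correspond to 0.0712 CPM (counts per 1000000 human gene counts), so both were at the limit of detection.

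The cells were T98G, an established human glioblastoma line. A lentivirus delivered either a control hairpin (shControl) or a short hairpin RNA that targets the protein kinase DYRK1A (shDYRK1A), and each group has 3 libraries, 1A, 1B and 1C, whose values are given in that order throughout. All 6 libraries came from cells that had been selected with puromycin, left to recover without it, and mixed before RNA extraction with Drosophila Kc167 cells, a fly line whose reads set the scale between libraries. The design asks which transcripts differ when DYRK1A is depleted, per equal number of T98G cells. The labels name no further hairpin against DYRK1A, so effects of DYRK1A loss and other effects of the hairpin cannot be told apart here. The labels do not say that the libraries of a group came from separate cultures, so the p-values below measure the spread between these samples, which may be technical. In such bulk RNA, fewer cells of a type and less RNA per cell cannot be told apart.

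Human gene counts ranged from 33708297 to 42154438 per library, and shDYRK1A 1B was the shallowest. Unmapped reads made up 10.7, 8.44 and 8.46% of each shControl library and 11.9, 15.6 and 10.8% of each shDYRK1A library, highest in shDYRK1A 1B. This library also stood apart within its group, with a chi-square per degree of freedom over genes of 16.1 against 1A and 19.9 against 1C, where 1A and 1C gave 4.76. The part of these differences in the results was not tested. DYRK1A itself had 2227, 2234 and 1895 normalized counts in shControl and 1482, 1056 and 1285 in shDYRK1A, with no overlap, and its log2 fold change was -0.73 ± 0.147 (SE, adjusted p = 5.33e-06, edgeR's quasi-likelihood test with Benjamini-Hochberg adjustment). The median of all genes tested was -0.40 on this scale. With libraries scaled to their own human genes (TMM), DYRK1A was at -0.34 (adjusted p = 5.91e-04, edgeR). Glial markers were uneven in this line, since VIM, CD44 and EGFR lay between 132 and 1970 CPM, while GFAP, SOX2 and S100B, which define astrocytic or stem-like cells, did not exceed 0.0949 CPM. The 10 glioma and glial markers, of which 7 reached 1 CPM, summed to 3500 to 3650 CPM in shControl and 3290 to 3370 CPM in shDYRK1A. The means of VIM (1940 in shControl and 1590 CPM in shDYRK1A), EGFR (150 and 148), PDGFRA, NES and OLIG2 were lower in shDYRK1A. Those of CD44 (1460 and 1570 CPM) and CHI3L1 (4.36 and 13.5 CPM) were higher on this CPM scale. The 4 endothelial markers, of which 0 reached 1 CPM, summed to 0.641 to 0.937 CPM in shControl and 0.618 to 0.954 CPM in shDYRK1A, and the 4 immune markers, of which CD14 alone did, to 0.617 to 1.14 CPM and 1.16 to 1.38 CPM. Among fibroblast and pericyte markers, 4 of 6 reached 1 CPM, and the list summed to 235 to 252 CPM in shControl and 200 to 213 CPM in shDYRK1A. PDGFRB made up most of that sum, at a mean of 223 CPM in shControl and 181 CPM in shDYRK1A, whereas the means of COL1A1 (14.7 and 15.8 CPM), ACTA2 (6.82 and 8.69 CPM), RGS5 (0.778 and 0.904 CPM) and LUM (0.269 and 0.647 CPM) were higher in shDYRK1A. The 4 epithelial markers, of which 3 reached 1 CPM, led by KRT18 and KRT8, summed to 190 to 209 CPM in shControl and 190 to 217 CPM in shDYRK1A. These CPM values do not use the scale set by the fly reads. With spike-in scaling, VIM (-0.72, adjusted p = 1.47e-07, edgeR), EGFR (-0.44, adjusted p = 0.00291) and CD44 (-0.32, adjusted p = 0.0181) were lower. So were PDGFRB (-0.72, adjusted p = 7.4e-07, edgeR) and KRT18 (-0.52, adjusted p = 4.42e-04). COL1A1 (-0.31, adjusted p = 0.076, edgeR) and KRT8 (0.15, adjusted p = 0.371) did not pass. The part of these marker levels in the results below was not tested.

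Laminins are secreted as trimers of an alpha, a beta and a gamma chain, which assemble inside the cell before export. They polymerize into the sheet of the basement membrane, where nidogens and the proteoglycans perlecan and agrin bind them. Fibronectin, tenascins, thrombospondins and fibrillins form other fibrils and adhesive surfaces, and prolyl and lysyl hydroxylases and lysyl oxidases stabilize and crosslink collagens and elastin. Glioblastoma cells deposit and migrate along such matrix, particularly around blood vessels.

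Promoters are shown for 4 genes to which the results return, the laminin chains LAMB1 and LAMC1, whose levels separated, the prolyl hydroxylase P4HA1, and POSTN. The windows, from RefSeq on GRCh38.p14, run from 250 bases before to 50 bases after an annotated start and are written 5′ to 3′ on the gene's strand. They lie at chr7:108003112-108003411 (minus strand) for LAMB1, chr1:183023170-183023469 (plus strand) for LAMC1, chr10:73096817-73097116 (minus strand) for P4HA1 and chr13:37598719-37599018 (minus strand) for POSTN. Capitals mark a match to one of the motifs named after the sequences, on either strand.
LAMB1: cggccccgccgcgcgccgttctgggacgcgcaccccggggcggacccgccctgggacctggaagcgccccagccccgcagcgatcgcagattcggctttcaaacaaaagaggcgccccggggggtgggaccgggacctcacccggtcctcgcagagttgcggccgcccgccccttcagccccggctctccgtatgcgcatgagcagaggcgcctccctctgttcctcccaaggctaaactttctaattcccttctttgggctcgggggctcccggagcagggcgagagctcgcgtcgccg
LAMC1: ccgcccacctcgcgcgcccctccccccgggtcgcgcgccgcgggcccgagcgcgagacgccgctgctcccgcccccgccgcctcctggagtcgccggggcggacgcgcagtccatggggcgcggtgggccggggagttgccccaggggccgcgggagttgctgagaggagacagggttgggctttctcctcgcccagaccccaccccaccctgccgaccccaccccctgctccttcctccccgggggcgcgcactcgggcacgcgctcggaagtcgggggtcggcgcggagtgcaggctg
P4HA1: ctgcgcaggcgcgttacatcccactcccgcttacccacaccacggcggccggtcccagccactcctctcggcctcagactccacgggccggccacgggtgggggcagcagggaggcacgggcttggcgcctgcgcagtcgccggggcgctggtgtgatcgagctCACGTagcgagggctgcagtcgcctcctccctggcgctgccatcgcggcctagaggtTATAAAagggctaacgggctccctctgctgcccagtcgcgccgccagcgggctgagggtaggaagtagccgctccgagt
POSTN: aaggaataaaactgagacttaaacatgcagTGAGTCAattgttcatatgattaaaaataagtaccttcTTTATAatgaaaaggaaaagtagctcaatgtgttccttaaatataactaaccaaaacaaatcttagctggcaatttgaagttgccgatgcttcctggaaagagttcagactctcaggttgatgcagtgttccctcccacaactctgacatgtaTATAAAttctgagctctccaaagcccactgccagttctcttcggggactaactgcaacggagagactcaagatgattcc

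Both laminin windows were rich in G and C, at 71.0% in LAMB1 and 79.0% in LAMC1, against 70.3% in P4HA1 and 39.0% in POSTN. The motifs were searched on both strands in all 35116 RefSeq windows and in the 40 windows found for 33 of the 37 listed genes. The palindrome TCTCGCGAGA, a core promoter element that the study examined, was in 0 of the 40 windows and in 0.424% of all windows. ACGTG, the core of the hypoxia response element, was in 8 of the 40, belonging to FBN2, LOX, MFAP2, P4HA1, PLOD2 and THBS2, and in 21.4% of all windows. TGACTCA, the letters bound by AP-1 factors, was in 4 of the 40, belonging to LAMA3, LAMB3, MFAP2 and POSTN, against 4.95% of all windows. The TATA box letters TATAAA were in 4 of the 40, belonging to FBLN5, P4HA1, POSTN and THBS2, against 11.5% of all windows. These motifs do not overlap one another in the windows shown, and a match describes letters, not a bound site.

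Of the 35 matrix genes in the table, 27 passed a filter on a mean above 10 CPM and 8 lay under it. Among the 27, a call required a log2 fold change beyond -0.7 or 0.7 together with an adjusted p below 0.05. Of these, 6 were called lower in shDYRK1A, P4HA1, VCAN, FN1, LAMB1, FBLN1 and LAMB3, which is 22.2% of the 27 against 14.3% of the 9697 genes tested. None was called higher, where the background was 0.278%, and 0 of the 27 were higher at an unadjusted p below 0.05 by edgeR or called higher by DESeq2. At the adjusted p alone, 20 of the 27 (74.1%) were lower against 63.4% of all genes, and 0 were higher against 1.08%. The median log2 fold change of the 27 was -0.49, beside -0.40 for all genes tested, and 25 of the 27 had a negative log2 fold change, as did 93.6% of all genes. Without shDYRK1A 1B, 5 were called lower, 17 were lower at the adjusted p and the median was -0.41.

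This shared fall rests on the scale set by the fly reads and is absent when libraries are scaled to their own human genes. Such scaling centres the human genes by construction, so it would also remove a fall per cell that most genes shared. With TMM scaling, which brought the median of all genes from -0.40 to 0.00, the median of the 27 was -0.09. Of the 27, 10 were then lower and 6 higher at an adjusted p below 0.05, against 28.6% and 27.3% of all genes. None passed the log2 threshold of 0.7 under TMM in edgeR, at an unadjusted p below 0.05 either, where 1.93% of all genes were called lower and 1.25% higher. The 6 that were higher under TMM were LAMC1, LAMA4, TNC, FBN1, PLOD1 and LOXL2, none of which passed the test in either direction with spike-in scaling. Together, the 37 genes took 0.679, 0.701 and 0.695% of human gene counts in the shControl libraries, and 0.667, 0.625 and 0.683% in the shDYRK1A libraries. The lowest share was in shDYRK1A 1B, and the ranges of the groups overlapped between 0.679 and 0.683%.

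**Figure D1:**
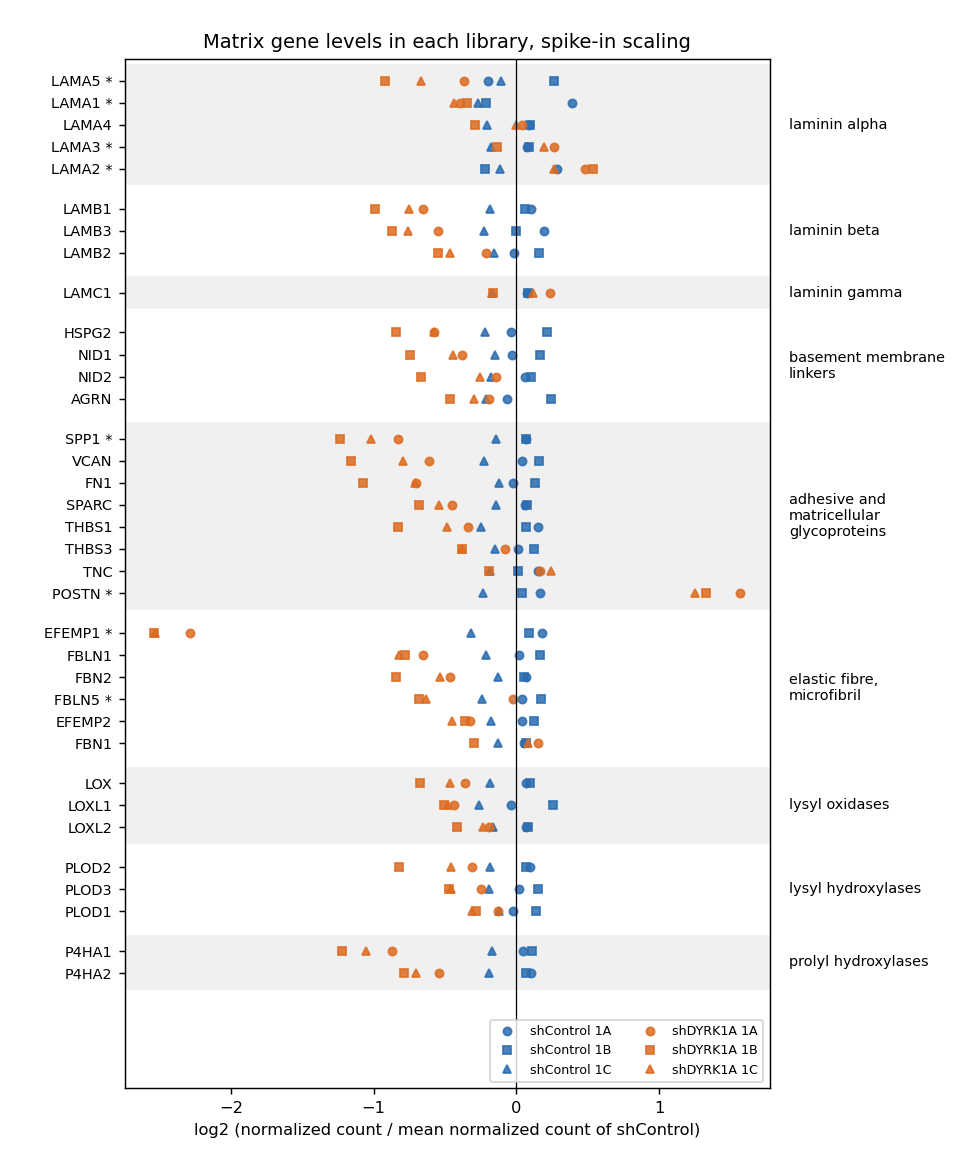
Level of each of the 35 matrix genes in each library, as log2 of its normalized count over the mean of the shControl libraries (x axis), by role (shaded bands). Circles, squares and triangles are libraries 1A, 1B and 1C, shControl in blue and shDYRK1A in orange, and asterisks mark the 8 genes under the filter. EFEMP1 lies farthest to the left and POSTN farthest to the right, and shDYRK1A 1B is the leftmost library for many genes.

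The laminin chains did not move together. LAMB1 encodes the beta1 chain, present in most laminins of embryonic and vascular basement membranes. The gene lies at chr7:107923799-108003255 (GRCh38, minus strand) and had 43186, 41973 and 35368 normalized counts in shControl against 25563, 20247 and 23827 in shDYRK1A. Every shDYRK1A library lay below every shControl library, and LAMB1 fell by 0.79 ± 0.128 on the log2 scale (SE, n = 3 per group, adjusted p = 1.37e-08, edgeR's quasi-likelihood test), a 1.73-fold lower level. LAMC1, the gamma1 chain with which LAMB1 pairs (chr1:183023460-183145592, GRCh38, plus strand), had 20173, 20309 and 17074 normalized counts in shControl and 22598, 17163 and 20784 in shDYRK1A. The groups overlapped, with the highest value in shDYRK1A 1A, and the log2 fold change was 0.07 ± 0.130 (SE, adjusted p = 0.616, edgeR). Under TMM scaling LAMB1 remained lower (-0.39, adjusted p = 2.52e-05, edgeR) and LAMC1 was higher (0.47, adjusted p = 9.16e-06, edgeR).

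The ratio of LAMB1 to LAMC1 counts within a library needs no scaling between libraries. It was 2.14, 2.07 and 2.07 in the shControl libraries and 1.13, 1.18 and 1.15 in the shDYRK1A libraries. Per kb of exon, the mean LAMB1 to LAMC1 ratio was 2.16 in shControl and 1.19 in shDYRK1A. By this measure beta1 exceeded gamma1 transcript in both groups, by less in shDYRK1A. The exon length merges all annotated transcripts of a gene, and the length of those expressed was not determined, so the size of the excess is approximate. The ratio of LAMB1 to LAMA4 was 4.63 ± 0.1 (SD, n = 3) in the controls and 2.82 ± 0.0652 (SD, n = 3) in shDYRK1A. LAMA4 to LAMC1 moved less, from 0.452 ± 0.00946 (SD, n = 3) to 0.409 ± 0.0121 (SD, n = 3). These pairs, and those of the other ratios below, were chosen after the values had been seen, and all ratios are given without a test.

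LAMA4, the alpha4 chain of endothelial and mesenchymal laminins, was the most abundant alpha chain, at a mean of 749.7 normalized counts per kb of exon in shControl and 711.5 in shDYRK1A. It had 9219, 9288 and 7526 normalized counts in shControl and 8928, 7101 and 8680 in shDYRK1A. These values overlapped, and its log2 fold change was -0.08 with spike-in scaling (adjusted p = 0.615, edgeR) and 0.33 with TMM (adjusted p = 1.22e-04, edgeR). The other alpha chains were between 1.41 and 24.8 normalized counts per kb in shControl. LAMA3, the alpha3 chain of epithelial laminins, had 383, 386 and 321 normalized counts in shControl and 437, 331 and 415 in shDYRK1A, and LAMA2, the alpha2 chain of muscle and nerve, had 69.4, 48.8 and 52.6 in shControl and 79.4, 82.5 and 68.4 in shDYRK1A. Both overlapped between groups with spike-in scaling, at log2 fold changes of 0.12 and 0.43 (adjusted p = 0.586 and 0.158, edgeR), and under TMM they were 0.49 and 0.81 (adjusted p = 3.04e-04 and 0.00359, edgeR). LAMA5, the broadly expressed alpha5 chain, passed the test in the lower direction with spike-in scaling (-0.63, adjusted p = 0.00301, edgeR) but not with TMM (-0.27, adjusted p = 0.110), nor without shControl 1B (-0.48, adjusted p = 0.0823). LAMA1, the alpha1 chain of early embryonic membranes, rested on 117 counts over all 6 libraries and did not pass (-0.38, adjusted p = 0.454, edgeR).

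The other beta chains were lower too. LAMB3, which joins LAMA3 in the laminin of epithelial anchoring filaments, had 1401, 1222 and 1049 normalized counts in shControl and 837, 671 and 722 in shDYRK1A. The groups did not overlap, and LAMB3 fell by 0.72 ± 0.154 on the log2 scale (SE, adjusted p = 2.02e-05, edgeR), close to the threshold of 0.7, which it missed without shControl 1A (-0.61), without shDYRK1A 1B (-0.65) and without shDYRK1A 1C (-0.698). LAMB2, the beta2 chain of neuromuscular and kidney membranes, was lower at the adjusted p alone (-0.40, adjusted p = 0.00872, edgeR) and was at -0.0019 under TMM. It no longer passed without shControl 1B (-0.32, adjusted p = 0.112), shDYRK1A 1B (-0.33, adjusted p = 0.0502) or shDYRK1A 1C (-0.37, adjusted p = 0.0838). All 3 beta chains were lower at the adjusted p with spike-in scaling, as were 63.4% of all genes, and LAMB1 and LAMB3 were lower under TMM, as were 28.6% of all genes. The 9 laminin genes summed to 1628, 1622 and 1618 CPM in shControl and to 1685, 1544 and 1720 CPM in shDYRK1A, which overlap. CPM does not use the scale set by the fly reads, so these sums do not show whether the total per cell changed.

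**Figure D2:**
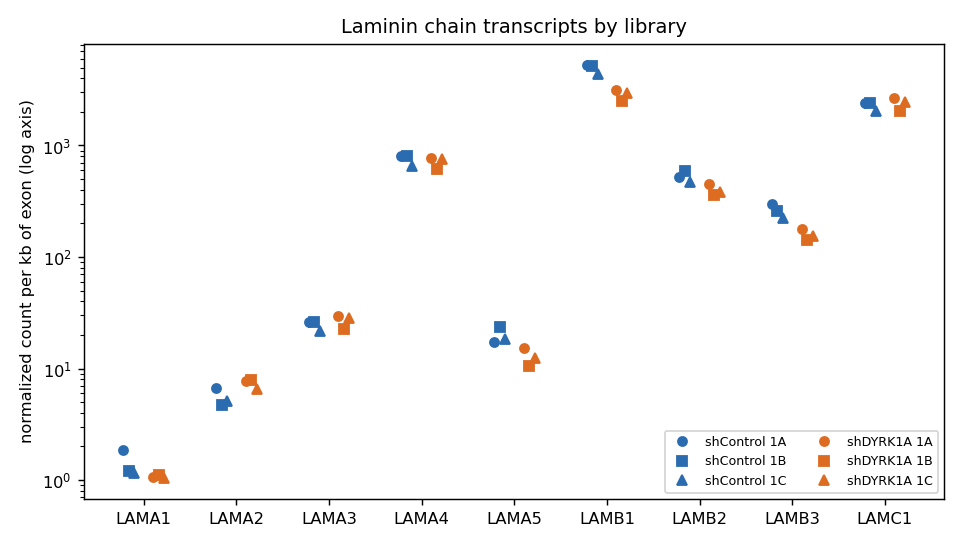
Normalized counts per kb of exon (log axis) of the 9 laminin chain genes in each library, with shControl in blue on the left and shDYRK1A in orange on the right of each gene. LAMB1 was the most abundant chain in shControl, with a mean of 4936 against 2282 for LAMC1, and in shDYRK1A these means were 2852 and 2401.

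Genes whose products bind laminin in the basement membrane were lower to about the extent of all genes. All 4 passed the adjusted p with spike-in scaling, as did 63.4% of all genes in this direction, and 0 reached the threshold of 0.7. HSPG2, which encodes perlecan, had the largest fold change of these (-0.66, adjusted p = 2.34e-05, edgeR) and stayed below zero under TMM (-0.25, adjusted p = 0.00815, edgeR). NID1, the nidogen that links laminin to type IV collagen, was at -0.51 (adjusted p = 7.23e-04, edgeR) and at -0.11 under TMM, where it did not pass (adjusted p = 0.126). Its paralogue NID2 (-0.34, adjusted p = 0.0365) and agrin, AGRN (-0.31, adjusted p = 0.0368, edgeR), changed sign under TMM, to 0.06 and 0.09. A gene on the other strand overlaps 30% of the exon bases of NID2, and 25.4% of those of the thrombospondin THBS3. The NID2 and AGRN results were fragile, since without shControl 1B the edgeR adjusted p was 0.171 for NID2 and 0.384 for AGRN, and without shDYRK1A 1B it was 0.263 and 0.149. Neither gene passed without shControl 1A (0.158 and 0.0793) or without shDYRK1A 1C (0.0926 and 0.128).

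Among adhesive and matricellular glycoproteins, FN1 and VCAN were called lower. FN1 encodes fibronectin, the main adhesive ligand of integrins in provisional matrix, at chr2:215360440-215436172 (GRCh38, minus strand). It had 39558, 44147 and 37035 normalized counts in shControl against 24758, 19136 and 24595 in shDYRK1A. The groups were separate, and FN1 fell by 0.82 ± 0.128 on the log2 scale (SE, adjusted p = 4.11e-09, edgeR), a 1.76-fold lower level that remained at -0.42 under TMM (adjusted p = 2.05e-04, edgeR). VCAN, the hyaluronan-binding proteoglycan versican, had 2494, 2717 and 2076 normalized counts in shControl and 1587, 1088 and 1402 in shDYRK1A. It did not overlap between groups either, at a log2 fold change of -0.84 ± 0.145 (SE, adjusted p = 1.23e-07, edgeR) and of -0.44 under TMM (adjusted p = 3.18e-04).

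SPARC, a collagen-binding matricellular protein, had the highest mean level of the 37 genes per kb of exon in both groups. It had 57785, 58410 and 50241 normalized counts in shControl and 40572, 34541 and 38066 in shDYRK1A, which do not overlap. Its log2 fold change was -0.56 (adjusted p = 5.61e-05, edgeR), and under TMM it was -0.15 (adjusted p = 0.0104). THBS1, an anti-angiogenic thrombospondin that activates latent TGF-beta, was lower with spike-in scaling (-0.54, adjusted p = 1.32e-04, edgeR) but did not pass under TMM (-0.14, adjusted p = 0.0760), and THBS3 passed under neither scaling (-0.27, adjusted p = 0.113, and 0.13, adjusted p = 0.129). TNC, the tenascin that is prominent in glioma matrix, had 1244, 1129 and 982 normalized counts in shControl and 1255, 978 and 1324 in shDYRK1A. These overlapped, at a log2 fold change of 0.09 (adjusted p = 0.618, edgeR), while under TMM TNC was higher (0.49, adjusted p = 2.79e-04, edgeR).

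The 8 genes under the filter were tested in a second edgeR fit of 17623 genes kept by filterByExpr. Of them, 2, EFEMP1 and SPP1, were called lower, where 14.3% of all genes in that fit were, and 1, POSTN, was called higher against 1.24%. POSTN encodes periostin, a matricellular protein of fibroblasts and of remodelling matrix, at chr13:37562583-37598844 (GRCh38, minus strand). It had 174, 159 and 131 normalized counts in shControl and 459, 388 and 368 in shDYRK1A. Every shDYRK1A library lay above every shControl library, and POSTN rose by 1.39 ± 0.186 on the log2 scale (SE, adjusted p = 6.70e-12, edgeR), 2.62-fold. It rose by 1.76 under TMM (adjusted p = 1.57e-09, edgeR) and was the only one of the 35 genes called higher with spike-in scaling. Its promoter window, printed above, held an AP-1 match, as did windows of LAMB3, which was called lower, and of LAMA3 and MFAP2. The part of this motif in the change was not tested.

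SPP1, which encodes osteopontin, a secreted ligand of integrins and CD44, had 491, 489 and 424 normalized counts in shControl and 264, 198 and 231 in shDYRK1A. The groups were separate, and SPP1 fell by 1.02 ± 0.175 on the log2 scale (SE, adjusted p = 1.39e-07, edgeR), and by 0.65 under TMM (adjusted p = 2.49e-05, edgeR).

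EFEMP1 had the largest fold change of the 35 genes. It encodes fibulin-3, a secreted glycoprotein of elastic and basement membrane matrix, at chr2:55865967-55924139 (GRCh38, minus strand). It had 481, 452 and 341 normalized counts in shControl and 87.0, 73.2 and 73.3 in shDYRK1A. The lowest shControl library was well above the highest shDYRK1A library. EFEMP1 fell by 2.44 ± 0.200 on the log2 scale (SE, adjusted p = 4.43e-31, edgeR), a 5.44-fold lower level, and by 2.07 under TMM (adjusted p = 1.31e-09, edgeR). Leaving out each library in turn gave log2 fold changes from -2.58 to -2.35. Its close relative EFEMP2, fibulin-4, which is needed for elastic fibre assembly, was at -0.38 (adjusted p = 0.0124, edgeR) and at 0.03 under TMM, and the ratio of EFEMP1 to EFEMP2 counts was 0.109, 0.0963 and 0.0897 in shControl and 0.0254, 0.0219 and 0.0233 in shDYRK1A.

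**Figure D3:**
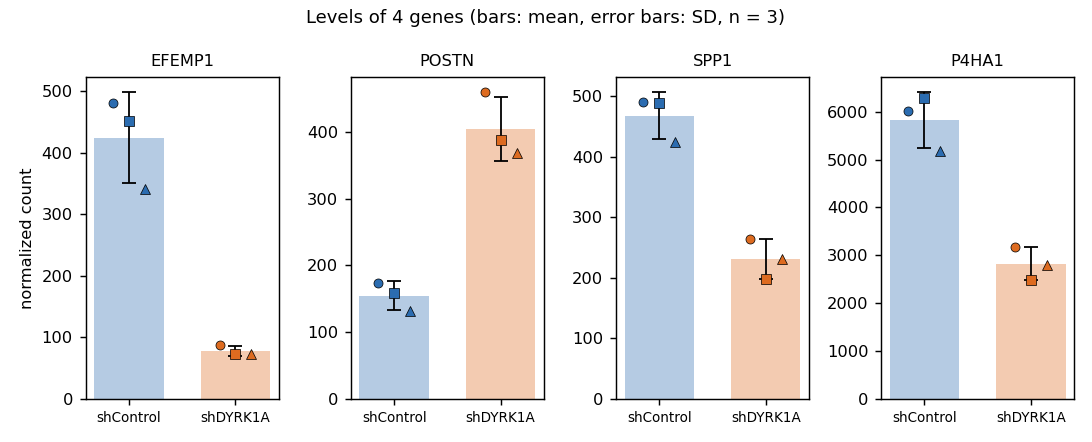
Normalized counts of EFEMP1, POSTN, SPP1 and P4HA1 in each library (circles 1A, squares 1B, triangles 1C), with bars for the group mean and error bars for the SD of 3 libraries. The groups do not overlap in any of the 4 genes. This was also so for PLOD1, LOXL2 and LAMA1, which did not pass the test. The share over all genes was not counted, and 93.6% of all genes had a negative log2 fold change on this scale. A lack of overlap is therefore given here and in the text as a description only. POSTN is the one of the 4 that is higher in shDYRK1A.

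The other elastic fibre and microfibril genes differed less. FBLN1, fibulin-1, had 912, 1008 and 776 normalized counts in shControl and 570, 523 and 507 in shDYRK1A. The groups did not overlap and FBLN1 fell by 0.75 ± 0.159 on the log2 scale (SE, adjusted p = 1.49e-05, edgeR), by 0.34 under TMM (adjusted p = 0.00203, edgeR), and by 0.66 without shControl 1B, below the threshold of 0.7. The fibrillins, which form the backbone of microfibrils, separated. FBN2, the fibrillin of developing tissue, was lower (-0.61, adjusted p = 2.95e-04, edgeR, and -0.21 under TMM, adjusted p = 0.0127). FBN1, the main adult fibrillin, had 4025, 4069 and 3541 normalized counts in shControl and 4308, 3163 and 4098 in shDYRK1A, which overlap. Its log2 fold change was -0.01 (adjusted p = 0.960, edgeR), and it was higher under TMM (0.39, adjusted p = 1.88e-04, edgeR). The ratio of FBN2 to FBN1 counts within a library was 0.342 ± 0.00345 (SD, n = 3) in the controls and 0.227 ± 0.00637 (SD, n = 3) in shDYRK1A. FBLN5, fibulin-5, did not pass (-0.41, adjusted p = 0.170, edgeR), although without shDYRK1A 1A it did (-0.65, adjusted p = 0.0415). EFEMP2 no longer passed the adjusted p without shControl 1A (adjusted p = 0.0720), shControl 1B (0.112) or shDYRK1A 1C (0.108) in edgeR.

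**Figure D4:**
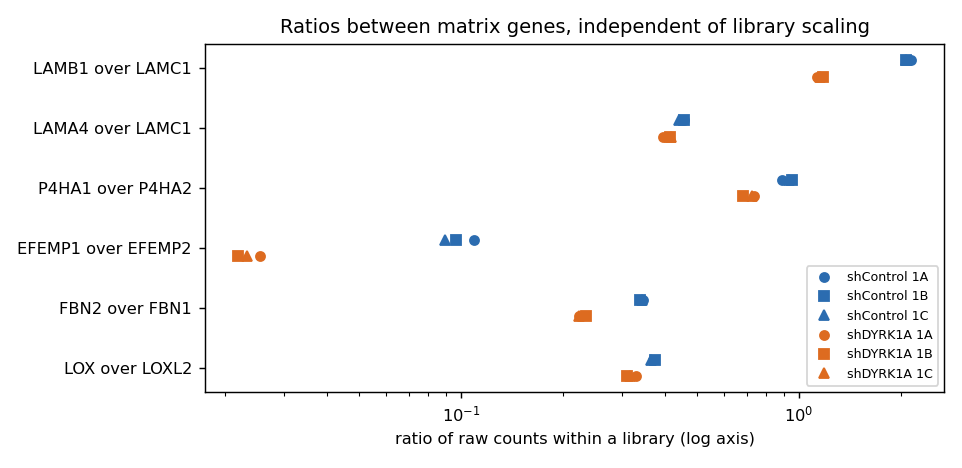
Ratios of raw counts between pairs of matrix genes within each library (log axis), with shControl in blue above and shDYRK1A in orange below for each pair. For all 6 pairs plotted the shDYRK1A libraries lie to the left of the shControl libraries, with LAMB1 over LAMC1 at 2.07 to 2.14 in shControl and 1.13 to 1.18 in shDYRK1A. The pairs, and the gene placed first in each, were chosen with the values known, so the shared direction is not a result.

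The enzymes differed in the size of their change. P4HA1 encodes the alpha subunit of the collagen prolyl 4-hydroxylase that is induced by low oxygen, at chr10:73007217-73096974 (GRCh38, minus strand). It had 6011, 6287 and 5172 normalized counts in shControl and 3183, 2493 and 2805 in shDYRK1A. The groups did not overlap, and P4HA1 fell by 1.04 ± 0.139 on the log2 scale (SE, adjusted p = 4.16e-12, edgeR), a 2.06-fold lower level, and by 0.64 under TMM (adjusted p = 4.97e-07, edgeR). P4HA1 thus had the largest fall of the 27 genes above the filter under both scalings. The second alpha subunit, P4HA2, was lower at the adjusted p alone (-0.67, adjusted p = 7.01e-06, edgeR, and -0.27 under TMM, adjusted p = 1.95e-04). The ratio of P4HA1 to P4HA2 counts was 0.924 ± 0.0327 (SD, n = 3) in the controls and 0.713 ± 0.0278 (SD, n = 3) in shDYRK1A.

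Lysyl hydroxylases and lysyl oxidases differed by no more than 0.51 on the log2 scale. PLOD2, the lysyl hydroxylase of collagen telopeptides, was lower with spike-in scaling (-0.51, adjusted p = 3.28e-04, edgeR) and did not pass under TMM (-0.11, adjusted p = 0.119). PLOD3, which also glycosylates hydroxylysine, was at -0.39 (adjusted p = 0.00834, edgeR) and at 0.02 under TMM, and it no longer passed without shControl 1B (adjusted p = 0.108) or shDYRK1A 1C (adjusted p = 0.0883). PLOD1, the hydroxylase of the collagen helix, had 14401, 16085 and 13437 normalized counts in shControl and 13426, 12022 and 11835 in shDYRK1A. The groups came close without overlapping, and PLOD1 was at -0.24 (adjusted p = 0.0998, edgeR), and higher under TMM (0.17, adjusted p = 0.0256, edgeR).

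LOX, the lysyl oxidase that starts the crosslinking of collagen and elastin, was lower with spike-in scaling (-0.49, adjusted p = 8.41e-04, edgeR), as was LOXL1, its relative in elastic fibre renewal (-0.47, adjusted p = 0.00211, edgeR), and neither passed under TMM (-0.09, adjusted p = 0.0720, and -0.06, adjusted p = 0.544). LOXL1 no longer passed the adjusted p without shControl 1B (-0.33, adjusted p = 0.103, edgeR). LOXL2, which acts on type IV collagen of basement membranes, was the most abundant of the 3 per kb of exon, at 3356 normalized counts per kb in shControl. It had 20121, 20239 and 17093 normalized counts in shControl and 16790, 14391 and 16255 in shDYRK1A. These did not overlap, yet LOXL2 did not pass with spike-in scaling (-0.28, adjusted p = 0.0523, edgeR), passed with DESeq2 on the same scaling (adjusted p = 0.0253), and was higher under TMM (0.13, adjusted p = 0.0232, edgeR). The ratio of LOX to LOXL2 counts was 0.370 ± 0.00432 (SD, n = 3) in the controls and 0.318 ± 0.0101 (SD, n = 3) in shDYRK1A.

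**Figure D5:**
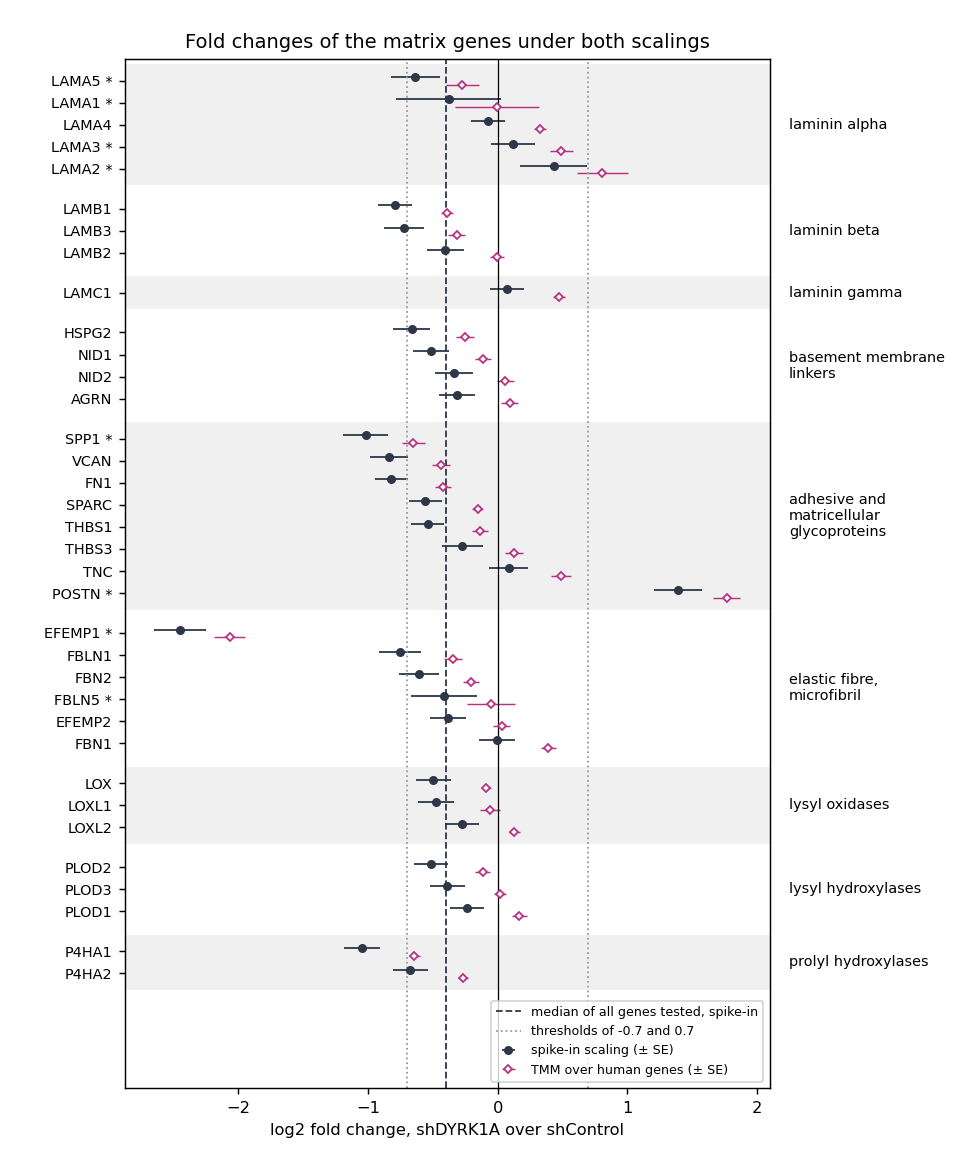
Log2 fold change, shDYRK1A over shControl, of the 35 matrix genes with spike-in scaling (filled circles) and TMM scaling (open diamonds), each with its SE and ordered by role, with asterisks on the 8 genes under the filter. The dashed line is the median of all genes tested with spike-in scaling, -0.40, and the dotted lines are the thresholds of -0.7 and 0.7. EFEMP1, SPP1, P4HA1, VCAN, FN1, LAMB1, FBLN1 and LAMB3 lie beyond -0.7 with spike-in scaling, and POSTN lies beyond 0.7.

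In properties that the choice of genes did not use, the 27 genes above the filter had a median exon length of 7.29 kb, against 5.34 kb over the genes tested, and a median GC content of 51.7% against 47.8%.

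Other genes of the same matrix pathway, in 6 related lists, gave 66 tested genes, with a median log2 fold change of -0.35 (0.05 under TMM). Of these, 9 were called lower and 1 higher with spike-in scaling, and 37 were lower and 3 higher at the adjusted p alone. The 9 are 13.6% of the 66 against 14.3% of all genes, and the 37 are 56.1% against 63.4%, so neither count exceeded the share over all genes. Under TMM, 1 was called lower, ITGB1, and 3 higher, ITGB8, HMCN1 and MGP. Among 20 tested matrix receptors, 3 (15%) were called lower, near the share of all genes, and 1 higher. The receptors included the largest change of the lists, in ITGB1, the beta1 subunit shared by most laminin and fibronectin receptors, which fell by 1.86 ± 0.136 on the log2 scale (SE, adjusted p = 5.62e-39, edgeR) and by 1.46 under TMM (adjusted p = 5.97e-09, edgeR). ITGB8, the beta subunit of an integrin that activates latent TGF-beta, rose by 0.73 (adjusted p = 7.18e-06, edgeR) and by 1.13 under TMM.

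Of 14 other matrix glycoproteins tested, 4 (28.6%) were called lower against 14.3% of all genes, from CTGF (-0.96, adjusted p = 5.06e-08, edgeR) to SRPX2 (-0.70, adjusted p = 1.07e-04, edgeR). Under TMM, CTGF was at -0.56 and SRPX2 at -0.30. Among 7 basement membrane partners, 1 (14.3%, the share of all genes) was called lower, PXDN, the peroxidase that crosslinks type IV collagen (-0.79, adjusted p = 7.07e-08, edgeR, and -0.39 under TMM). Among 7 proteoglycan and hyaluronan genes, 1 (14.3%) was called lower, the syndecan SDC1 (-0.98, adjusted p = 1.45e-10, edgeR, and -0.57 under TMM). None of 15 other crosslinking and collagen processing enzymes and none of 3 further elastic fibre genes was called with edgeR. At the adjusted p alone, 11 (73.3%) and 2 (66.7%) of them were lower, against 63.4% of all genes. HMCN1, a hemicentin of basement membranes, and MGP, an inhibitor of calcification, were higher at the adjusted p alone (0.56, adjusted p = 0.00158, and 0.59, adjusted p = 0.00125, edgeR), and these 2 were chosen for naming after their values had been seen.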

How the data were processed

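Messenger RNA was sequenced from 6 libraries of T98G cells, 3 shControl and 3 shDYRK1A, grouped by their titles. Per the study's methods, libraries were stranded (TruSeq) and sequenced as paired ends. The submitters' processing notes name STAR, DESeq2, hg38 and dm3. The authors deposited raw gene counts per library for 58174 human gene identifiers. The summary lines of those tables, which name no gene, held 18.9 to 21.5% of the shControl totals and 21.1 to 25.0% of the shDYRK1A totals, highest in shDYRK1A 1B, and were left out. The authors also deposited a normalized signal for 23026 genes, which is the raw count divided by 1 size factor per library derived from the fly reads. These size factors were 0.821 to 1.21. The authors' comparison table, with fold changes and p-values, was not used. Columns of per-sample values without a matching sample numbered 0. Library pairs of 1 group differed by more than counting noise, so none was counted as a duplicate.

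Genes with a mean normalized count above 10 CPM of the mean library size were kept, which left 9697 genes. Raw counts with these size factors entered the robust quasi-likelihood test of edgeR 4.0.16 (R 4.3.3), with Benjamini-Hochberg adjustment over all genes kept. A difference counted as called at an adjusted p under 0.05 together with a log2 fold change past 0.7 in size. The SE is the log2 fold change over the square root of the F statistic. Genes under this filter were taken from a fit of 17623 genes kept by filterByExpr, an alternative chosen after seeing the data. The alternatives comprised scaling by TMM or median of ratios, DESeq2 1.42.0, a block for the replicate letter, leaving out each library, other filters and thresholds, and GC or length trends as offsets (natural spline, 4 degrees of freedom). The steps were tested on simulated data. Counting error sets the limit for genes at a few counts, and the reads, which carry no molecular identifiers, need not be independent.

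All 37 genes are named. Values in each library were given for genes called, for the 3 with the highest mean level, for those higher under TMM, and for LAMB1, LAMC1 and FN1. Of each related list, the called genes with the largest and smallest fold change may be named. The genes and lists were chosen with earlier results of these data known. Gene coordinates and exon lengths come from GENCODE v29 on GRCh38, whose coordinates equalled the table's for 34 of the 35 genes. The kit marks strand, but whether counting used it is not given in the sources used here, so counts of genes that overlap another gene on the other strand may be shared. Promoter windows come from RefSeq (GRCh38.p14) and were found for 33 of the 37 genes. EFEMP1, LAMA1, AGRN and LOXL2 had no entry.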

Additional observations from a re-analysis of the deposited data

How the results depend on the processing

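Scaling decided most of what changed. Under TMM and under median of ratios, the count of 6 genes called lower went to 0, the 20 lower at the adjusted p went to 10, the 0 higher went to 6, and the median log2 fold change went from -0.49 to -0.0907 and -0.0875. Among the other genes of the matrix pathway, 9 called lower went to 1 under TMM and 1 called higher went to 3. Single genes changed sign, with values under TMM and then median of ratios of 0.1275 and 0.1306 for THBS3, 0.3289 and 0.3321 for LAMA4, 0.0606 and 0.0638 for NID2, 0.0922 and 0.0955 for AGRN, 0.3891 and 0.3923 for FBN1, 0.0315 and 0.0346 for EFEMP2, 0.1288 and 0.1319 for LOXL2, 0.1681 and 0.1712 for PLOD1, and 0.0179 and 0.0210 for PLOD3. LAMA1 (0.0007) and LAMB2 (0.0013) changed sign under median of ratios alone. FBN1, near zero, also did so with a length trend (0.0539) or GC trend (0.0030) as an offset. A log2 threshold of 0.5 gave 13 genes lower and a threshold of 1 gave 1, P4HA1. With filterByExpr or no filter, 1 gene, POSTN, was higher, called and at the adjusted p. AGRN no longer passed with the length trend (edgeR adjusted p = 0.0725) or no filter (0.0769), nor NID2 with no filter (0.0728), while THBS3, LOXL2 and PLOD1 passed with the GC trend (0.0305, 0.00838 and 0.018). Apart from these scalings and offsets, signs changed when 1 library was left out, over ranges of -0.0016 to 0.2063 for TNC, -0.1680 to 0.0209 for LAMA4, -0.0159 to 0.1771 for LAMC1 and -0.0949 to 0.1162 for FBN1, none of which had passed the test. Leaving out 1 library gave 5 to 8 genes called lower, 14 to 23 lower at the adjusted p, a median of -0.5849 to -0.4111 and a DYRK1A log2 fold change of -0.8549 to -0.6147. THBS3, FBLN5, LOXL2 and PLOD1 passed without 1 library, THBS3 without shControl 1C (edgeR adjusted p = 0.0318) or shDYRK1A 1A (0.0416), and LOXL2 and PLOD1 without shControl 1C (0.00216 and 0.0124).

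Letters shared by the groups did not establish a pairing, since the deviations of same-letter libraries correlated at 0.151 for 1A, 0.0728 for 1B and 0.128 for 1C across genes, although each library correlated best with its own letter. With the replicate block, 6 genes were called lower and 20 were lower at the adjusted p, the median was -0.4942, AGRN no longer passed (-0.3044, adjusted p = 0.0579, edgeR) and LOXL2 did (-0.2751, adjusted p = 0.0444, edgeR).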
